A study of Mus musculus with 2 samples.

Results

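The cytosolic ribosome is built from a small subunit, which decodes the messenger RNA, and a large subunit, which joins the amino acids. Each is a ribosomal RNA core covered by ribosomal proteins that are present in about equal number. Messages of ribosomal proteins carry a terminal oligopyrimidine tract at the 5′ end, the TOP motif, through which TOR signalling controls their translation as a group. In hepatocytes the ribosomes on the endoplasmic reticulum make the plasma proteins.

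The transcripts described here are those of 80 genes, found among 26440 genes by their symbols, which are Rps or Rpl with a number and at most 1 letter x, a or l, together with Rpsa, Rplp0, Rplp1 and Rplp2. Kinases of the Rps6k family, pseudogenes and mitochondrial ribosomal proteins were left out. The 80 genes comprise 30 of the small and 50 of the large subunit, each represented by 1 RefSeq accession. Rps18 is not analysed here. Rps3a1, Fau and Rack1 also encode ribosome components, but their symbols do not match that pattern. They are described beside the members.

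The RNA came from the livers of 11-day-old BALB/c mice. The genotypes were SRSF2-/-, a deletion that the series calls liver specific (KO), and wild type (WT), with 1 library each. SRSF2 is a serine/arginine-rich splicing factor. The promoter that drives the deletion, the part of the gene removed, the cells that lost it and the number of animals per library are not stated in the labels. With 1 library per genotype no difference was tested against the spread between animals, and every value describes these libraries. Levels are deposited FPKM, which are read numbers normalised for transcript length and sequencing depth. Ratios are KO over WT. Each range after a fold is the exact 95% interval of the read ratio and covers counting error only. For folds and ranges the read ratio was multiplied by 1.012, the depth factor between the libraries that the deposited FPKM values carry.

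Reads on annotated transcripts numbered 22111605 in KO and 22407743 in WT. Srsf2 itself stood at 11.8 FPKM in the KO library, against 27.9 FPKM in the WT library. Over the 12477 genes with at least 1 FPKM in either library, the median log2 ratio was 0.55, so most genes had a higher value in the KO library. The 20 most abundant genes, took 19.6% of the KO reads and 33.7% of the WT reads. Alb stood at 25492 FPKM in KO and 50399 FPKM in WT, and its fetal relative Afp at 7035 FPKM in KO and 239 FPKM in WT. Ratios of members are therefore given as deposited and also relative to that median, which is called centred. In bulk liver RNA, fewer cells of a type and less RNA per cell cannot be told apart.

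Ribosomal protein transcripts were higher in the KO library as a family. With 1 added to each FPKM, they were higher by about as much as the median gene. Together the 80 genes had 610415 reads in the KO library and 386062 in the WT library. That was 2.76% of the KO reads (2.75 to 2.77) and 1.72% of the WT reads (1.72 to 1.73). Scaled by the depth factor, the reads were 1.60-fold higher in KO (1.59 to 1.61). Without the 20 most abundant genes in the total, the shares were 3.43% in KO and 2.60% in WT, so the difference between the libraries was smaller but in the same direction. The summed level was 29454 FPKM in KO and 18583 FPKM in WT. Among the 100 most abundant genes of each library, 16 were members in KO and 7 in WT.

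Of the 80 genes, 76 (30 small and 46 large subunit) reached 1 FPKM in a library, and each of these 76 was well covered, with 1315 to 24016 reads in KO and 815 to 15301 reads in WT. All 76 had a higher FPKM in the KO library as deposited, where 84.5% of all tested genes were higher, and 49 of the 76 lay above the median of all genes after centring. On the log2(FPKM + 1) scale, which all log2 ratios use unless another setting is named, their median ratio was 0.61, or 0.06 centred. The distance from the all-gene median depended on the value added to FPKM, the pseudocount. With 0.1 the family's median was 0.615 and that of all genes 0.684. With 5 they were 0.597 and 0.298. The members lay close together. Their ratios ran from 0.07 to 1.51 with an SD of 0.25, against an SD of 0.78 over all tested genes. Some related lists described below were nearly as close together. The SD was 0.30 for translation initiation factors, 0.33 for RNA polymerase I genes and 0.35 for ribosome biogenesis factors. In the other lists of translation genes it ran from 0.38 to 0.84. The quartiles of the family were 0.46 and 0.79, and those of all tested genes 0.22 and 0.89.

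A 2-fold limit on this scale was passed upward by 5 of the 76 members, or 6.58%, beside 19.2% of all tested genes. It was passed downward by 0 members, beside 2.95% of all tested genes. With a limit of 1.5-fold, 43 members were higher, or 56.6%, beside 47.4% of all tested genes. After centring, 0 members were 2-fold higher and 0 were 2-fold lower, beside 5.67% and 6.66% of all tested genes. The members are abundant transcripts, so they were also set beside the 1254 genes with at least 50 FPKM in either library. Those genes had a median of 0.50 and an SD of 1.34, and 70.3% of them were higher in KO. Past 2-fold, 23.5% were higher and 11.6% lower, or 10.4% and 20% after centring. Past 1.5-fold, 45.3% were higher. The limits of this description are the single library per genotype and the choice of scale. When the libraries are rescaled without their 20 most abundant genes, the family's median is 0.28, as is that of all genes. At that setting 1 member is 2-fold higher, beside 9.99% of all genes.

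**Figure D1:**
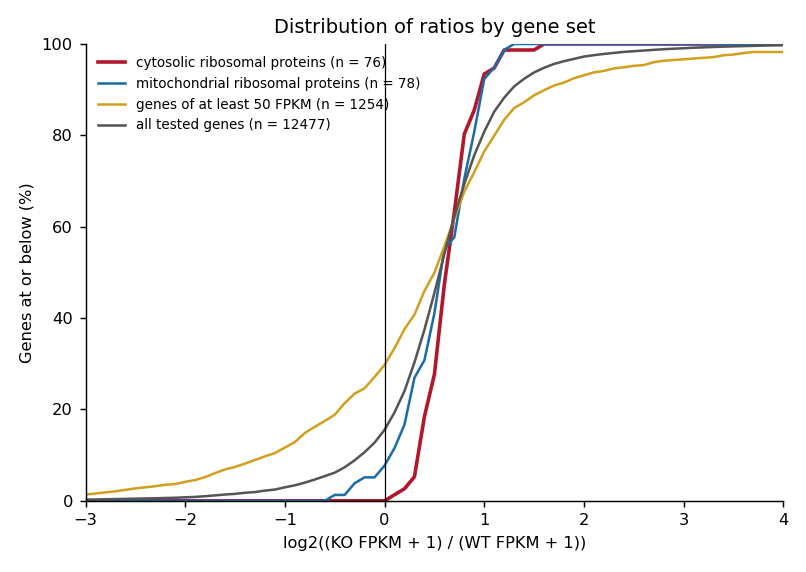
Percentage of genes (vertical axis) at or below each log2((KO FPKM + 1) / (WT FPKM + 1)) value (horizontal axis) for 76 cytosolic and 78 mitochondrial ribosomal proteins, 1254 genes of at least 50 FPKM and 12477 tested genes. The line of the cytosolic ribosomal proteins climbs between 0.07 and 1.51, and the line of the abundant genes spreads over the whole axis.

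The order of abundance within the family was much the same in both libraries. Across the 76 members the log2 FPKM values of the libraries had a Pearson correlation of 0.97 and a Spearman correlation of 0.95, a description over genes that share library and transcript length. Levels of the members spanned 14.98 to 2038 FPKM in KO and 10.62 to 1178 FPKM in WT, with medians of 327 FPKM in KO and 212 FPKM in WT. At least 100 FPKM was reached by 71 members in KO and 62 in WT.

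Rpl41, which encodes a very short basic peptide of the large subunit, was the most abundant member, with 2038 FPKM in KO and 1178 FPKM in WT, 1.73-fold higher in KO (1.69 to 1.77). It ranked 17 among all genes of the KO library and 37 among those of the WT library. Rpl13a, whose protein is best known in human cells for a role in silencing inflammatory messages, stood at 893 FPKM in KO and 562 FPKM in WT. Rplp1, of the stalk that recruits elongation factors, stood at 887 FPKM in KO and 697 FPKM in WT. These 3 transcripts were higher in KO, with Rplp1 moving least. Rpl23a, near the tunnel exit where the signal recognition particle docks, stood at 837 FPKM in KO and 485 FPKM in WT. Rps12 stood at 826 FPKM in KO and 563 FPKM in WT. Rps26, which contacts messenger RNA at its exit from the small subunit, stood at 811 FPKM in KO and 495 FPKM in WT. These 6 transcripts were the most abundant of the family in both libraries, apart from their order.

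At the low end, Rps15a had 14.98 FPKM in KO and 10.62 FPKM in WT, although it had 2017 reads in KO and 1447 in WT. Reads and FPKM together imply a length of 6089 bases for its accession, the longest of the family. Implied lengths take the reads on annotated transcripts as the depth. The GENCODE transcript matched to Rps15a has 5179 bases, so implied lengths can come out too long. The implied length was over 2000 bases for 9 members and 907 bases at the median. Rpsa, Rps3 and Rpl21 are among the 9, with matched GENCODE transcripts of 1938, 1908 and 1856 bases. Across the 76 members, the log2 implied length had a Pearson correlation of -0.58 with the mean log2 level and of 0.06 with the log2 ratio. These are descriptions over genes of the same libraries, and levels per length depend on the accession that the table uses for a gene.

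**Figure D2:**
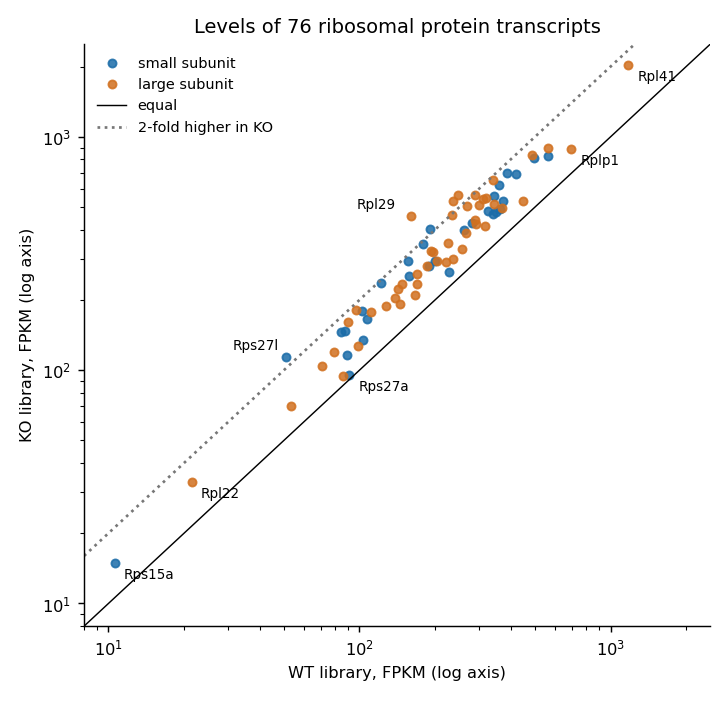
FPKM in the KO library (vertical axis, log) against FPKM in the WT library (horizontal axis, log) for 76 ribosomal protein genes, coloured by subunit. All points lie above the line of equal values, and 5 lie at or above the dotted line of a 2-fold higher KO value.

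Both subunits had nearly the same ratio. The 30 small subunit genes had a median log2 ratio of 0.61 and ran from 0.07 to 1.13, with 2 past 2-fold upward and 0 downward. The 46 large subunit genes that passed 1 FPKM had a median of 0.60 and ran from 0.13 to 1.51, with 3 past 2-fold upward and 0 downward. Scaled by the depth factor, reads of the small subunit were 1.60-fold higher in KO (1.59 to 1.61), and reads of the large subunit also 1.60-fold higher (1.59 to 1.61). Summed levels of the small subunit were 10956 FPKM in KO and 7010 FPKM in WT, and those of the large subunit 18498 FPKM in KO and 11573 FPKM in WT. The large subunit therefore had 1.69 times the summed FPKM of the small subunit in KO and 1.65 times in WT, and 1.76 times its reads in KO and 1.75 times in WT. No test of this balance is possible with 1 library per genotype, and members of a subunit are not replicates of it.

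The members nevertheless differed from each other by more than counting error. The family's own fold of 1.60 lay inside the interval of 12 of the 76 members. For 25 members the whole interval lay above it, and for 39 the whole interval lay below it. Counting intervals are narrow at these read numbers, and the same counts over other genes are not given here. The spread among animals that such folds would have is unknown here.

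**Figure D3:**
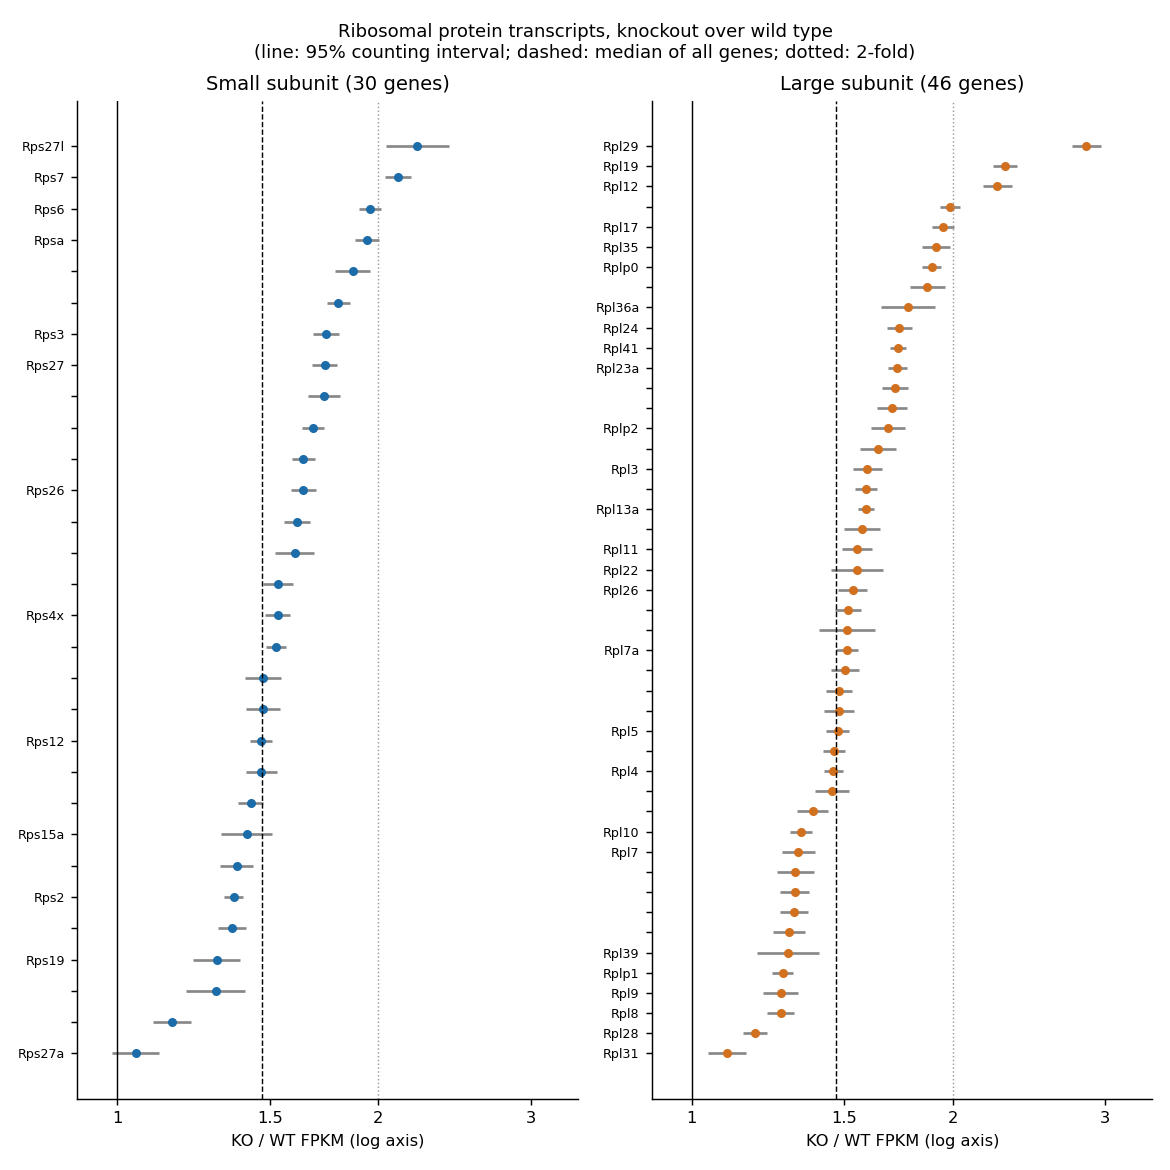
FPKM fold of KO over WT (horizontal axis, log) for each member of the small subunit (30 genes) and of the large subunit (46 genes), sorted by fold, with the genes described in the text named. Points are folds, bars exact 95% counting intervals, the dashed line is the median of all genes and the dotted line marks 2-fold. Rpl29 lies highest, and Rps27a is the member whose interval holds 1.

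The highest ratio belonged to Rpl29, a basic heparin-binding protein of the large subunit. It had 459 FPKM in KO and 161 FPKM in WT, from 10421 reads in KO and 3697 in WT, and was 2.85-fold higher in KO (2.75 to 2.96). In mice, loss of Rpl29 is known to reduce body growth. Its level thus stood 28th of the family in KO and 50th in WT. Rpl19, which takes part in a bridge to the small subunit, had 565 FPKM in KO and 246 FPKM in WT, 2.30-fold higher in KO (2.23 to 2.37). Rpl12, part of the base of the stalk, had 532 FPKM in KO and 236 FPKM in WT, 2.25-fold higher in KO (2.17 to 2.34). These large subunit genes all moved up within the family's order of abundance, Rpl19 to 11th in KO, against 32nd in WT, and Rpl12 to 17th in KO, against 33rd in WT.

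In the small subunit, Rps27l had 113 FPKM in KO and 51.1 FPKM in WT, 2.22-fold higher in KO (2.04 to 2.41). Rps7, which in human cells binds the p53 regulator MDM2, had 401 FPKM in KO and 190 FPKM in WT, 2.11-fold higher in KO (2.04 to 2.18). Under 2-fold, Rps6, the substrate of S6 kinase, had 349 FPKM in KO and 178 FPKM in WT. Rpsa, whose product is also known as a laminin receptor, followed with 236 FPKM in KO and 121 FPKM in WT, 1.94-fold higher in KO (1.882 to 2.004). No member stayed past 2-fold after centring, and the highest centred ratio was 0.95, for Rpl29.

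The lowest ratio belonged to Rps27a, which encodes ubiquitin fused to a small subunit protein. It had 95.6 FPKM in KO and 91.0 FPKM in WT, from 2057 reads in KO and 1982 in WT, a fold of 1.05 with an interval of 0.987 to 1.12. It was the 1 member of the 76 whose interval did not lie above 1. Fau, a fusion of a ubiquitin-like protein with a small subunit protein, had 372 FPKM in KO and 272 FPKM in WT, 1.37-fold higher in KO (1.32 to 1.42). Both of these fusion genes lay below the family's fold of 1.60.

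Rpl31, beside the tunnel exit, had 94.0 FPKM in KO and 85.6 FPKM in WT, 1.10-fold higher in KO (1.04 to 1.16). Rpl28 had 529 FPKM in KO and 447 FPKM in WT, 1.18-fold higher in KO (1.15 to 1.22). Rpl9 and Rpl8 had folds of 1.27 each. Relative to the median gene these members were low, with centred log2 ratios of -0.48 for Rps27a, -0.42 for Rpl31 and -0.31 for Rpl28.

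The start regions of members at both ends of this range, and of the Rps27 and Rpl22 paralog pairs described next, are shown because the TOP motif would lie there. Each is 30 bases around an annotated RefSeq start of build GRCm38.p6, with 15 bases before it. The longest run of C and T in the window is in capitals. Where runs tie for the longest, as in Rps7 and Rpl22, the first is marked. Where a gene has several annotated starts, the one with the longest run is shown.
Rpl19 (chr11:98026909-98026938, plus strand): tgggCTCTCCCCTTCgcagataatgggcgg
Rpl12 (chr2:32961697-32961726, plus strand): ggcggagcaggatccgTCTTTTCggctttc
Rps7 (chr12:28635939-28635968, minus strand): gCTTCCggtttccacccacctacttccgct
Rpl28 (chr7:4792950-4792979, plus strand): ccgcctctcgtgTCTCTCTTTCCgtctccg
Rpl31 (chr1:39367836-39367865, plus strand): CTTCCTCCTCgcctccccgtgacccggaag
Rps27 (chr3:90213634-90213663, minus strand): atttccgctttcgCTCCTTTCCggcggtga
Rps27l (chr9:66946071-66946100, plus strand): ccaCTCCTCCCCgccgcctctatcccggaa
Rpl22 (chr4:152324421-152324450, plus strand): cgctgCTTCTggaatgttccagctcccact
Rpl22l1 (chr3:28805493-28805522, plus strand): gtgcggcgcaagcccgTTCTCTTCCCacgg
In Rps27 and Rpl28 the longest run in the window spans the annotated start. Rpl28, near the low end of the ratios, has a run of 11 bases, as has Rpl19 near the high end.

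A run of at least 8 unbroken C or T bases within 20 bases of an annotated start, on the strand of the gene, was found for 29 of the 56 tested members that have a start in the table. It was found for 18.8% of all 27025 genes in that table. The median log2 ratio of the members was 0.61 with such a run and 0.61 without. The other 20 tested members are not in the table, so fewer than 80% of the family have a value. The comparison over the family is therefore void, and annotated starts need not be the starts used in liver.

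Paralogs whose symbols end in l or l1 differed from their partners in several pairs. Rps27l encodes a protein very similar to that of Rps27 and is a known target of p53. It had 1786 reads in KO and 815 in WT, while Rps27 had 9398 in KO and 5481 in WT, or 624 FPKM in KO and 359 FPKM in WT. Rps27 was 1.74-fold higher in KO (1.68 to 1.79), an interval that does not meet that of Rps27l. Rps27l took 16.0% of the reads of the pair in KO (15.3 to 16.7) and 12.9% in WT (12.1 to 13.8).

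Rpl22l1, whose symbol does not match the pattern, was the 1 gene with a lower value in KO among the 83 tested when such paralogs and the other ribosome components are added to the members. It had 8.53 FPKM in KO and 13.3 FPKM in WT, from 124 reads in KO and 197 in WT, a fold of 0.640 (0.507 to 0.805). Its partner Rpl22, known in mice for a part in T lymphocyte development, had 33.2 FPKM in KO and 21.4 FPKM in WT, 1.55-fold higher in KO (1.45 to 1.66). Rpl22l1 took 5.70% of the reads of the pair in KO (4.76 to 6.76) and 12.8% in WT (11.2 to 14.6). In these libraries the members of the pair thus lay on opposite sides of 1, and the log2 ratio of Rpl22l1 was 1.20 below that of Rpl22 (a difference of -1.20).

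Rpl36al had 127 FPKM in KO and 118 FPKM in WT, 1.08-fold higher in KO (1.01 to 1.16). Its X-linked partner Rpl36a had 160.1 FPKM in KO and 90.1 FPKM in WT, 1.78-fold higher in KO (1.65 to 1.91). The order of the pair by FPKM was reversed between the libraries, with Rpl36a above Rpl36al in KO and below it in WT. Rpl7l1, by contrast, had 24.1 FPKM in KO and 18.0 FPKM in WT, and its share of the reads with Rpl7 was 25.9% in KO and 25.7% in WT. Rpl7 had 193 FPKM in KO and 145 FPKM in WT.

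**Figure D4:**
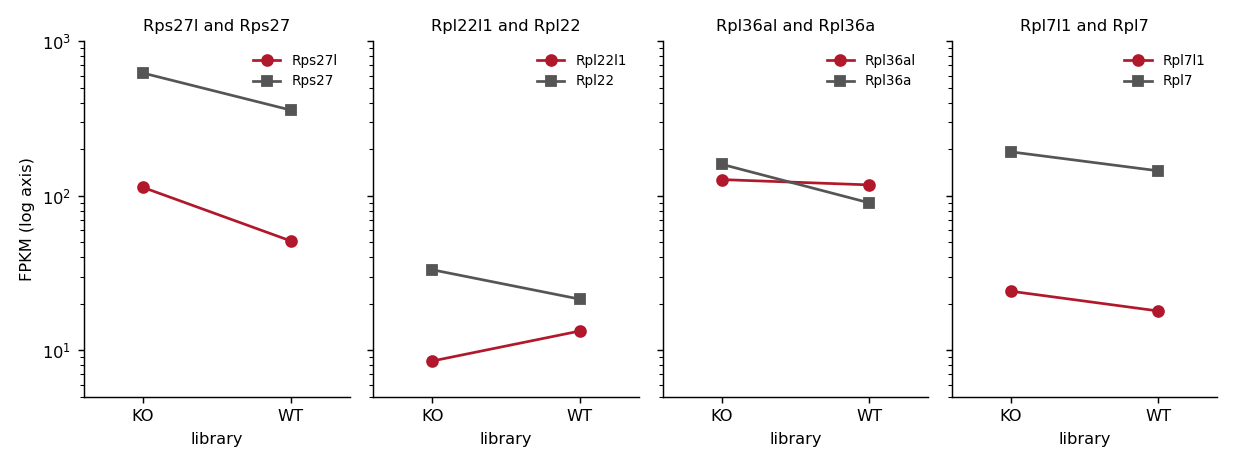
FPKM (vertical axis, log) of 4 ribosomal protein paralogs (circles) and their partners (squares) in the KO library (left) and the WT library (right) of each panel. Rpl22l1 has 8.53 FPKM in KO and 13.3 FPKM in WT while Rpl22 runs the other way, and the lines of Rpl36al and Rpl36a cross.

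The 4 members below 1 FPKM were paralogs as well. Rpl3l, which replaces Rpl3 in skeletal muscle and heart, had 13 reads in KO and 2 in WT, a fold of 6.58 with an interval of 1.49 to 60.04. Rpl3 had 6836 reads in KO and 4341 in WT. Skeletal muscle markers were also higher in KO. Their summed level was 76.6 FPKM in KO and 0.158 FPKM in WT over 9 genes. Of these, 0 were at 0 reads in KO and 6 in WT, among them Acta1, Myh1 and Myh4. Markers of other tissues, described below, differed between the libraries as well, and a common source with Rpl3l was not tested. Rpl32l had 6 reads in each library. Rpl10l, a testis gene that stands in for X-linked Rpl10, and Rpl39l had 0 reads in both libraries, where a count of 0 allows up to 3 reads.

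By role, the stalk genes had separate ratios. Rplp0, the anchor of the stalk, had 507 FPKM in KO and 268 FPKM in WT, 1.89-fold higher in KO (1.84 to 1.94). Rplp2 had 323 FPKM in KO and 192 FPKM in WT, 1.68-fold higher in KO (1.61 to 1.76). Rplp1, its dimer partner, was 1.27-fold higher in KO (1.24 to 1.31). The intervals of these 3 genes did not overlap.

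Rpl5 and Rpl11, which bind the smallest ribosomal RNA and as a particle with it hold MDM2 in human cells, lay together. Rpl5 had 188 FPKM in KO and 128 FPKM in WT, 1.47-fold higher in KO (1.43 to 1.52). Rpl11 had 350.1 FPKM in KO and 226 FPKM in WT, 1.55-fold higher in KO (1.49 to 1.61). Their intervals overlapped, and that of Rpl11 held the family's fold of 1.60, while that of Rpl5 lay below it.

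At the entry of the messenger RNA into the small subunit, Rps3 had 178 FPKM in KO and 103 FPKM in WT, and Rps2 had 479 FPKM in KO and 351 FPKM in WT. Rps3 was 1.74-fold higher in KO (1.68 to 1.80) and Rps2 1.36-fold higher (1.33 to 1.398). Rack1, a scaffold on the head of the small subunit near the mRNA exit, had 383 FPKM in KO and 217 FPKM in WT, 1.76-fold higher in KO (1.71 to 1.81). Rps3a1 had 316 FPKM in KO and 203 FPKM in WT, 1.55-fold higher in KO (1.499 to 1.61). Rps19, the gene most often mutated in Diamond-Blackfan anaemia, had 116 FPKM in KO and 89.1 FPKM in WT, 1.30-fold higher in KO (1.22 to 1.39).

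Over the 9 genes whose proteins line the peptide tunnel or ring its exit (Rpl4, Rpl17, Rpl19, Rpl22, Rpl23a, Rpl26, Rpl31, Rpl35 and Rpl39), the median log2 ratio was 0.61 and the range 0.13 to 1.20. All 9 were higher in KO, as were all 76 tested members and 84.5% of all tested genes. These roles hold both Rpl19 and Rpl31, from the high and the low end. Rpl39 had 127 FPKM in KO and 98.6 FPKM in WT, and Rpl35 had 652 FPKM in KO and 341 FPKM in WT. Rpl10, which joins the large subunit late, had 495 FPKM in KO and 370 FPKM in WT, 1.34-fold higher in KO (1.30 to 1.38).

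Rpl10, Rpl39, Rpl36a and Rps4x are X-linked. Their summed reads, scaled by the depth factor, were 1.44-fold higher in KO (1.41 to 1.47), below the family's 1.60. The genes were not alike, with folds of 1.78 for Rpl36a, 1.53 for Rps4x, 1.34 for Rpl10 and 1.29 for Rpl39. Rps4x had 399 FPKM in KO and 261 FPKM in WT. Xist, expressed from an inactive X, stood at 0.0138 FPKM in KO and 27.4 FPKM in WT. The part of that difference in the ratios of the X-linked members was not tested.

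How reads shared with other genes were counted is not given, and the family has many processed pseudogenes. For each member, 1 matched GENCODE transcript was cut into words of 36 bases, and the words were looked up in all GENCODE transcripts of other genes. The matched transcript can differ from the sequence that was counted. For Rps20 it has 3706 bases beside an implied length of 595, for Rps24 525 beside 3727, and for Rpl18 679 beside 3531. The shares of such members are uncertain. The share of words found elsewhere had a median of 53.1% and ran from 0.689% to 98.7%, with Rps27 at the top. Each of the 76 members shared a word with at least 1 annotated pseudogene, and Rpl7a did so with 148. The median log2 ratio was 0.61 for the 42 members with at least 50% of words shared and 0.61 for the other 34, and the Pearson correlation was 0.08 across the 76 genes. With the level it was 0.34. Rpl29, at the top of the ratios, had 75.6% of its words in other genes, so its reads are uncertain. The same limit holds for Rpl19 with 79.7%, Rpl36a with 86.4%, Rpl36al with 64.4% and Rpl22l1 with 62.1%. Lower shares were those of Rps27l with 27.8% and Rpl22 with 8.28%. Read shares within the paralog pairs carry this limit beside counting error.

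**Figure D5:**
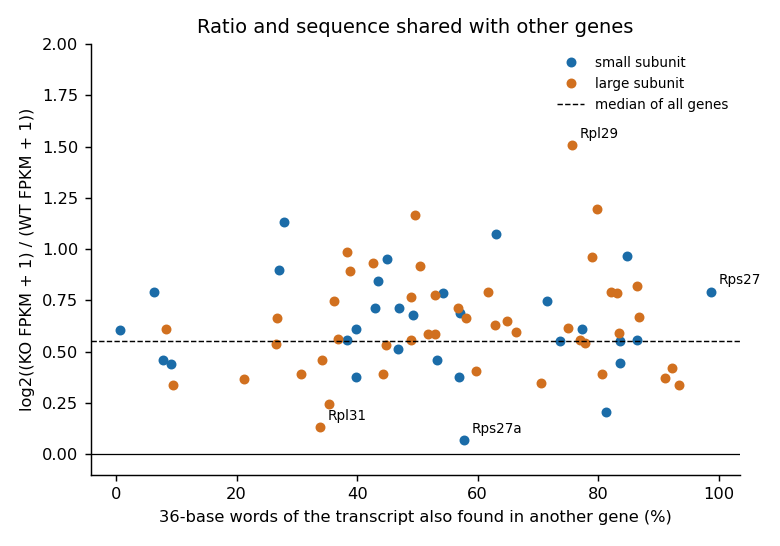
log2((KO FPKM + 1) / (WT FPKM + 1)) of 76 members (vertical axis) against the percentage of the matched GENCODE transcript's 36-base words that stand in a transcript of another gene (horizontal axis), coloured by subunit. Points scatter on both sides of the dashed line, the median of all genes, over the whole horizontal range.

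Markers of several cell types differed between the libraries beside these ratios. Their counts past 2-fold are to be read beside 19.2% of all tested genes higher and 2.95% lower. After centring those shares were 5.67% and 6.66%. The 10 hepatocyte markers summed to 60255 FPKM in KO and 132077 FPKM in WT, with 7 of 10 at least 2-fold lower. The 10 exocrine pancreas markers summed to 671 FPKM in KO and 3.79 FPKM in WT, with 8 of 9 tested at least 2-fold higher and 3 genes (Cpb1, Cel and Pnlip) at 0 reads in WT. The 10 erythroid genes summed to 445 FPKM in KO and 778 FPKM in WT, mainly Hba-a1 and Hba-a2, and Hbb-b1 and Hbb-b2 are listed at 0 in both. Granulocyte markers summed to 112 FPKM in KO and 218 FPKM in WT, with 3 of 7 at least 2-fold lower. Macrophage markers summed to 977 FPKM in KO and 386 FPKM in WT, with 5 of 9 at least 2-fold higher. Matrix cell markers, at 462 FPKM in KO and 160.4 FPKM in WT, had 5 of 7 at least 2-fold higher, and bile duct markers, at 102 FPKM in KO and 34.0 FPKM in WT, had 4 of 6. Endothelial markers, at 96.1 FPKM in KO and 79.1 FPKM in WT, had 0 of 6, and lymphocyte markers, at 13.4 FPKM in KO and 13.7 FPKM in WT, had 1 of 7. After centring, 10 of 10 hepatocyte, 7 of 7 granulocyte, 3 of 6 tested erythroid and 2 of 7 tested lymphocyte markers were at least 2-fold lower. At least 2-fold higher were 8 of 9 pancreas, 1 of 9 macrophage, 2 of 7 matrix cell and 2 of 6 bile duct markers. Of the endothelial markers 0 passed in either direction. The part of these differences in the ribosomal protein levels was not tested.

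Other genes of translation were set beside the family, from lists drawn up with earlier results of these data known. The counts of each list are to be read beside those of all tested genes, of which 84.5% were higher in KO, 19.2% passed 2-fold upward and 2.95% downward, or 5.67% and 6.66% after centring. Mitochondrial ribosomal proteins, which serve the separate ribosome of that organelle, had a median log2 ratio of 0.56 over 78 genes (0.01 centred), with 6 past 2-fold upward and 0 downward. They were less uniform, with an SD of 0.38 and 6 genes lower in KO. Mrpl45 had the largest ratio, with 26.5 FPKM in KO and 10.6 FPKM in WT. Mrpl54, with 113 FPKM in KO and 49.96 FPKM in WT, and Mrpl11, with 11.3 FPKM in KO and 4.53 FPKM in WT, followed. Mrpl52 was the most abundant, with 270 FPKM in KO and 201 FPKM in WT.

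Translation initiation factors had a median of 0.79 over 38 genes (0.24 centred), with 38 higher in KO, 8 past 2-fold upward, near the share of all tested genes, and 0 downward. Eif6, which keeps the large subunit from joining too early, had 96.1 FPKM in KO and 36.1 FPKM in WT, 2.66-fold higher in KO (2.50 to 2.83). Eif2s1, the subunit of initiation factor eIF2 that stress kinases phosphorylate, had 33.3 FPKM in KO and 12.1 FPKM in WT, and Eif2s2, another subunit, had 66.7 FPKM in KO and 29.0 FPKM in WT. The helicase gene Eif4a1 had 218 FPKM in KO and 107 FPKM in WT. Elongation and termination factors had a median of 0.53 over 11 tested genes of 13 (-0.02 centred), with 1 past 2-fold upward and 0 downward. That gene was Eef1e1, a synthetase complex component, with 15.1 FPKM in KO and 4.35 FPKM in WT. The release factor gene Etf1 had 33.1 FPKM in KO and 17.1 FPKM in WT. Eef1a1, which brings aminoacyl-tRNA to the ribosome, had 3370 FPKM in KO and 1969 FPKM in WT, 1.71-fold higher in KO (1.70 to 1.73).

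Ribosome biogenesis and nucleolar factors had a median of 0.88 over 64 tested genes of 65 (0.33 centred), with 16 past 2-fold upward and 0 downward (1 and 0 centred). Sbds, which releases Eif6 from new large subunits, had 40.3 FPKM in KO and 12.4 FPKM in WT, 3.26-fold higher in KO (2.94 to 3.62). Mphosph10, of the processome that cuts the ribosomal RNA precursor, had 9.30 FPKM in KO and 2.82 FPKM in WT, and Nop56, of the particles that methylate it, had 19.2 FPKM in KO and 6.93 FPKM in WT. Npm1, the most abundant gene of this list, had 80.2 FPKM in KO and 34.5 FPKM in WT. RNA polymerase I genes had a median of 0.59 over 15 genes (0.04 centred), with 2 at least 2-fold higher, Twistnb at 10.1 FPKM in KO and 3.28 FPKM in WT and Rrn3 at 10.8 FPKM in KO and 4.64 FPKM in WT. Taf1d had 4.43 FPKM in KO and 1.90 FPKM in WT, and the most abundant, Polr1d, had 30.1 FPKM in KO and 20.3 FPKM in WT.

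Other genes with TOP messages had a median of 0.78 over 19 genes (0.22 centred), with 8 past 2-fold upward and 0 downward (1 and 0 centred). This list overlaps those above and is not independent of them. Eef1a1, Eef1b2, Eef1d, Eef1g, Eef2 and Tpt1 also belong to the elongation list. Pabpc1, Eif3e, Eif3f, Eif3h and Eif4b also belong to the initiation list, and Npm1 to the biogenesis list. The largest ratios on this list were those of Snhg1, Gas5 and Vim. Snhg1 and Gas5 are non-coding hosts of small nucleolar RNAs, whose spliced RNAs are known substrates of nonsense-mediated decay. Snhg1 had 36.4 FPKM in KO and 6.14 FPKM in WT, 5.93-fold higher in KO (4.65 to 7.65). Gas5 had 10.01 FPKM in KO and 2.91 FPKM in WT, 3.44-fold higher in KO (2.93 to 4.06). Their plain folds lay above that of each of the 76 members that reached 1 FPKM. Vim, an intermediate filament gene of mesenchymal cells, had 88.0 FPKM in KO and 32.1 FPKM in WT.

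Genes of TOR signalling and of TOP control had a median of 0.65 over 33 tested genes of 36 (0.09 centred), with 10 past 2-fold upward and 0 downward (4 and 1 centred). Myc, a transcription factor known to raise ribosome synthesis, had 24.2 FPKM in KO and 1.90 FPKM in WT, 12.7-fold higher in KO (10.6 to 15.4). Eif4ebp3, of the family of proteins that hold the cap-binding factor, had 50.9 FPKM in KO and 7.11 FPKM in WT, 7.16-fold higher in KO (6.204 to 8.29). Ddit4, an inhibitor of TOR induced by stress, had 30.8 FPKM in KO and 4.92 FPKM in WT, 6.26-fold higher in KO (5.42 to 7.25). The abundant Eif4ebp1 had 84.3 FPKM in KO and 32.0 FPKM in WT. The log2 ratios of this list ran from -0.87 to 3.12, against 0.07 to 1.51 in the ribosomal protein genes. Genes named close to the family but outside its symbol pattern had a median of 0.54 over 10 tested genes of 15 listed (11 in the files, Rpl24 of the family among them), with 0 past 2-fold in either direction. Its largest ratio was that of Rsl24d1, a biogenesis factor related to Rpl24, with 17.9 FPKM in KO and 8.61 FPKM in WT, and Rps19bp1 had 24.7 FPKM in KO and 12.99 FPKM in WT.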

How the data were processed

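The labels' protocols name Trizol extraction and standard Illumina libraries, and the submitters' processing notes name Bowtie 0.12.2 and mm9. How reads were counted, on which annotation, with what strand and with what rule for multi-mapped reads is not stated. Per the file headers, the deposited tables give read counts and FPKM per RefSeq accession, both made by the authors. Symbols came from RefSeq (GRCm38.p6) and GENCODE M21 tables, for names only. They named 23419 of 26449 accessions, and all 80 members matched by transcript accession. Reads and FPKM were summed per gene.

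Ratios are log2((KO FPKM + 1) / (WT FPKM + 1)) for genes with at least 1 FPKM in either library. Folds are plain FPKM ratios. Their exact (Clopper-Pearson) 95% intervals come from the reads, scaled by the FPKM depth factor of 1.012, cover counting error only, and take amplified reads as independent. With 1 library per genotype no test was run. The pseudocount understates ratios of low genes. Members, lists, roles and settings were chosen with earlier results of these data known. Named genes are the highest, lowest and most abundant members, those past 2-fold, paralogs, and genes fixed by name. From each other list they are the 3 largest ratios and the most abundant gene. Rps2, Rps3, Rps15a, Rpl7, Rpl7a, Rpl35 and Xist were chosen after their values were seen. Some genes that this rule names are not reported here. Code was tested on simulated libraries. The tools were scipy 1.17.1, pandas 2.3.3, matplotlib 3.10.9 and numpy 2.4.6 under Python 3.11.15.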

Additional observations from a re-analysis of the deposited data

How the results depend on the processing

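No paired analysis was possible because each genotype had 1 library. As deposited, 5 members passed 2-fold upward and 0 downward. The count higher was 0 after centring, 1 after rescaling without the 20 most abundant genes, 43 with a 1.5-fold rule and 0 with a 4-fold rule. It was 4 or 5 under the other settings, while the count lower was 0 in every setting run. The share of all genes higher was 5.67% after centring, 9.99% after rescaling, 47.4% with the 1.5-fold rule and 2.76% with the 4-fold rule. Under the other settings that share ran from 6.30% to 30.4%. The median log2 ratio of 0.61 was 0.597 with a pseudocount of 5, 0.624 as TPM, 0.0569 after centring and 0.279 after rescaling without the 20 most abundant genes. It moved by less than the counting interval with a pseudocount of 0.1, with no filter or 5 FPKM, with 1 accession per gene, with the wider membership, without paralogs ending in l and, added after seeing the data, without the 5 most abundant members. The all-gene median of 0.553 was 0.684 with a pseudocount of 0.1 and 0.298 with 5. It was 0.627 as TPM and 0.280 after rescaling without the 20 most abundant genes. The large minus small subunit difference was -0.00957, and -0.0226 with the wider membership. The family's share without the 20 most abundant genes was 3.43% in KO and 2.60% in WT. Leaving out the 10 members with most shared words, a setting added after seeing the data, gave a depth-scaled fold of summed reads of 1.62 in place of 1.60. For 11 single genes, 100 of 121 alternative ratios stayed within their counting interval. Many of these were fixed in advance, because settings that change only the filter or the membership cannot alter the ratio of a single gene. The 21 ratios outside their interval came from centring and from rescaling without the 20 most abundant genes. Centring put Rps27a, Rpl31, Rpl28 and Rpl36al below 0. Depth limits little here, since each of the 76 members had at least 815 reads; the 4 others had at most 13.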
